A study of Mus musculus with 7 samples.

Results

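Barcodes with the transcripts of early granulocyte precursors were examined in 4 liver tumor libraries of single-cell RNA sequencing, NEJ634, NEJ687, NEJ709 and NEJ723. A barcode was kept when it held over 1000 UMIs (unique molecular identifiers, each standing for 1 captured transcript), at most 20% of them from mitochondrial genes. Shares were taken of the base, which is the UMIs of genes other than mitochondrial and haemoglobin genes. A barcode counted as promyelocyte-like when Elane, Prtn3, Mpo and Ctsg together reached 10 UMIs and 1% of the base while Camp, Ngp and Ltf together stayed under 5%. Of 81779 barcodes tested in the tumors, 1190 (1.46%) passed, and 100676 barcodes were tested over all 7 libraries of the series.

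The tumors came from Alb-Cre;CAG-Myc (ABC-Myc) mice on a C57BL/6J background, in which Cre recombinase under the albumin enhancer and promoter removes a STOP cassette in hepatocyte-lineage cells and so switches on human MYC. The albumin promoter is not one of blood cells. Tumor tissue was perfused and digested with collagenase and loaded whole, with no sort for blood cells, on a droplet kit that tags the 3′ end of each transcript. The other 3 libraries (NEJ638, NEJ654 and NEJ677) are healthy livers in the study's description, ages are not given per library in the sources used here, and GEO's labels describe all 7 libraries alike, so each library is 1 sample and no test between groups was made. A description line of NEJ709 also carries the name NEJ634; its title and file do not, and the title was followed.

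Neutrophils are built in steps, and each step fills a different kind of granule. Promyelocytes make the primary (azurophil) granules with myeloperoxidase and serine proteases, myelocytes and metamyelocytes then make secondary and tertiary granules with cathelicidin, lactoferrin and gelatinase, and division stops before the mature cell forms. Blood formation of this kind belongs to the bone marrow of adult mice and to the liver before and shortly after birth.

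Genes of primary granules are known as targets of the factors C/EBP, PU.1 and MYB, so the 250 bases before the start of each marker gene are shown first (RefSeq, GRCm38.p6, 5′ to 3′ along the gene). Capitals mark the letters GAGGAA, a PU.1 core, and AACNGTC, a longer form of a MYB core. Both were searched on both strands together with TTNNGCAA of C/EBP. Shorter MYB forms were not searched, so the letters CAACGG before Elane and Prtn3 are unmarked.
Elane (chr10:79886062-79886311, plus strand): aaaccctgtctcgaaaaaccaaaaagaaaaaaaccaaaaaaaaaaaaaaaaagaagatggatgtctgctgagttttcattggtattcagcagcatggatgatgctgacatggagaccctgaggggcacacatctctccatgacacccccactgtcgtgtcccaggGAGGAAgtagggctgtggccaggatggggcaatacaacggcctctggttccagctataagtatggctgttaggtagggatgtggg
Prtn3 (chr10:79879417-79879666, plus strand): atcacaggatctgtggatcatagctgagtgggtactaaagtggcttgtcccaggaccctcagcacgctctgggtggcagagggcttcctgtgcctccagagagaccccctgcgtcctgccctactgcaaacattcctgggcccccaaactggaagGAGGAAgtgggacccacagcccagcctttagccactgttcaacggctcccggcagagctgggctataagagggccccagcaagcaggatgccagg
Mpo (chr11:87793534-87793783, plus strand): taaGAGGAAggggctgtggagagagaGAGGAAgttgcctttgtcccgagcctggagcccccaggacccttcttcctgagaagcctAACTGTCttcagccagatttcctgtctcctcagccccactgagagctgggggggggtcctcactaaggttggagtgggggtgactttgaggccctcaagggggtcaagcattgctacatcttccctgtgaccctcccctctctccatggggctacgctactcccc
Ctsg (chr14:56102575-56102824, minus strand): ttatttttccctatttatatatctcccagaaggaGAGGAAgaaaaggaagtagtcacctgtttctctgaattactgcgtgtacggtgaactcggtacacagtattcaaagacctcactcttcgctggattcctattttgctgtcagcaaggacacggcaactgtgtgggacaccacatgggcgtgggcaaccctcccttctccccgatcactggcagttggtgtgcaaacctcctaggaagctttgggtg
Ms4a3 (chr19:11640852-11641101, minus strand): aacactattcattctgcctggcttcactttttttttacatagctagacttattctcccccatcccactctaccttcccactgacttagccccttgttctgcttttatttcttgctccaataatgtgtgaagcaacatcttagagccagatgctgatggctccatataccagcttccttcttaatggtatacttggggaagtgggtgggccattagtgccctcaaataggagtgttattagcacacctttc
GAGGAA was present on the gene's strand 85 bases before the start of Elane and 95 before that of Prtn3. It was present at 2 places before Mpo (247 and 224 bases) and 1 before Ctsg (216 bases), and Mpo also had AACNGTC at 165 bases. Ms4a3 had no match, and TTNNGCAA was in none of the 5 windows, which says only that these letters are not there. Over 32851 RefSeq promoter windows of this length, 23.3% held GAGGAA, 6.64% AACNGTC and 9.56% TTNNGCAA. Prtn3 and Elane are neighbours on chromosome 10, and the next gene after Elane, Cfd (complement factor D), stood at a median over libraries of 0.966 CPM (UMIs per 1000000 base UMIs) in the promyelocyte-like barcodes. Ctsg lies beside Mcpt8, a basophil protease gene at a median of 30.7 CPM.

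The barcodes were unevenly spread over the tumors. Tested barcodes numbered 40660 in NEJ634, 7531 in NEJ687, 21482 in NEJ709 and 12106 in NEJ723. No cell filter beyond the limits given was applied, so they may include droplets without a cell, which the shares below then count. NEJ634 held 960, which was 2.36% of its tested barcodes (exact 95% binomial interval 2.22 to 2.51). NEJ687 held 101, or 1.34% (1.09 to 1.63), and NEJ723 held 91, or 0.752% (0.606 to 0.922). NEJ709 held 38, or 0.177% (0.125 to 0.243). All intervals here cover counting error only, not the variation between animals, which 1 library each does not give. The order of the shares also changes with depth, as given in the next paragraph. NEJ634 thus supplied 80.7% of all promyelocyte-like barcodes, and 230 remained without it. Set against myelocyte-like barcodes (Camp, Ngp and Ltf at 5% of the base or more), there were 95.9 promyelocyte-like barcodes per 100 in NEJ634, 20.9 in NEJ687, 33.6 in NEJ709 and 27.5 in NEJ723. The rule passed 2 barcodes in the healthy liver library NEJ638, 7 in NEJ654 and 5 in NEJ677.

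NEJ634 differed from the other tumors in depth. Its promyelocyte-like barcodes had a median of 1842 UMIs and 915 genes. The median was 17806 UMIs and 3640 genes in NEJ687, 6249.5 UMIs and 1812.5 genes in NEJ709, and 21057 UMIs and 4034 genes in NEJ723. Over 5000 UMIs were held by 45 of the 960 in NEJ634, 86 of 101 in NEJ687, 21 of 38 in NEJ709 and 77 of 91 in NEJ723, in all 229. Of all tested barcodes, 6.35% in NEJ634, 50.1% in NEJ687, 16.6% in NEJ709 and 41.0% in NEJ723 held over 5000 UMIs. Among tested barcodes of that depth the share of promyelocyte-like ones was highest in NEJ687, not in NEJ634. Haemoglobin, RNA of red cells, made up a median of 2.21% and 13.8% of the UMIs in NEJ634 and NEJ709, against 0.0804% in NEJ687 and 0.131% in NEJ723. Pooled over barcodes, as levels are, the share was 3.23%, 1.03%, 3.77% and 1.30% in NEJ634, NEJ687, NEJ709 and NEJ723. Of the 1190 barcode sequences, 25 also held over 1000 UMIs in another library, 21 of them in NEJ634. In NEJ634, 12 hepatoblast and tumor epithelial markers summed to 3360 CPM, against 49.7 in NEJ687, 215 in NEJ709 and 193 in NEJ723. Without barcodes over 20% haemoglobin, 1165 of the 1190 remained, with a median Ms4a3 level over libraries of 1160 CPM against 1152. A subtraction of background RNA is given with the dependence on processing. The part of haemoglobin and epithelial RNA in the other results was not tested. Results are therefore given per library and, where it matters, for barcodes over 5000 UMIs.

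**Figure D1:**
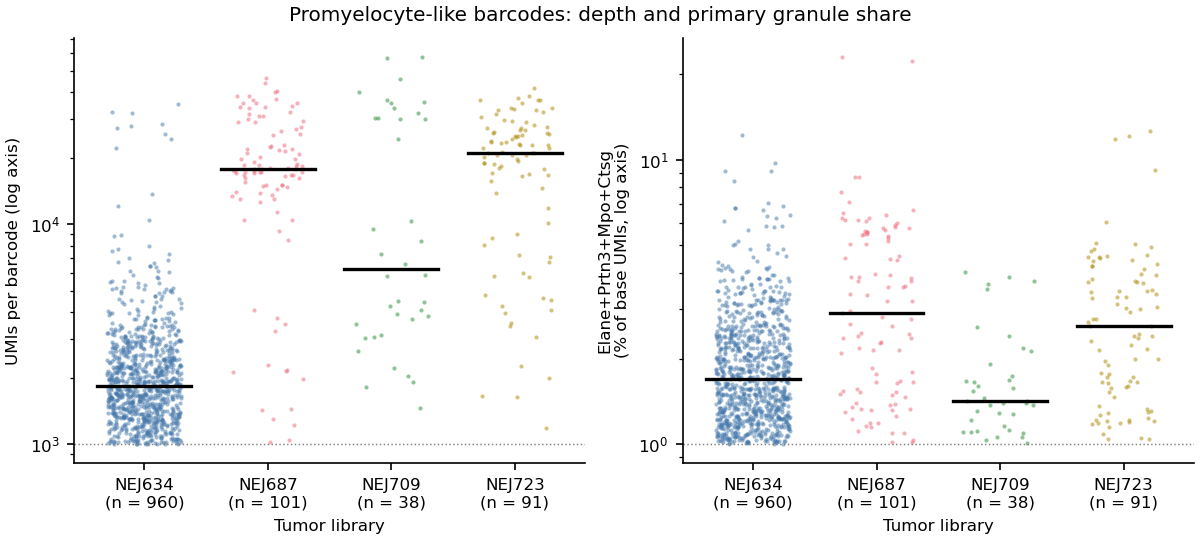
Each point is 1 promyelocyte-like barcode, by tumor library, with its UMIs (left) and the share of Elane, Prtn3, Mpo and Ctsg in percent of base UMIs (right), on log axes; black lines are medians and dotted lines the limits of the rule. The median of NEJ634 is 1842 UMIs, while those of NEJ687 and NEJ723 are 17806 and 21057.

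The 4 genes of the rule code for enzymes of the primary granule, and their levels describe the selection rather than test it. A level is the UMIs of a gene summed over barcodes per 1000000 base UMIs, written CPM. It was not divided by length, because the kit tags each transcript at its 3′ end. The paper's methods name an option that also counts introns, and the part of gene length in these levels was not tested. Elane, neutrophil elastase, stood at 7876 CPM in NEJ634, 11239 in NEJ687, 7479 in NEJ709 and 6785 in NEJ723. Prtn3, proteinase 3, stood at 7631, 13616, 7855 and 10291 in the same order, which is kept below. Mpo, myeloperoxidase, which makes hypochlorous acid from hydrogen peroxide, stood at 4652, 3786, 4737 and 5008. Ctsg, cathepsin G, stood at 2367, 3336, 3324 and 4535. As a description of the selected barcodes, Prtn3 gave 42.6% of their UMIs in NEJ687 and 33.9% in NEJ634, Mpo gave 11.8% in NEJ687 and 20.7% in NEJ634, and Ctsg gave 17% in NEJ723 and 10.5% in NEJ634. Single barcodes ranged more widely, since over 5000 UMIs the Prtn3 share went from 26.4% at the lowest decile to 43.2% at the highest in NEJ634 and from 33.6% to 59.2% in NEJ687, which overlap. All 4 genes were detected together in 85.4% of the barcodes in NEJ634 and in 97.0%, 97.4% and 96.7% in the other tumors. The share of base UMIs from the 4 genes had a median of 1.69%, 2.88%, 1.42% and 2.61%, and the highest barcode of each library reached 12.2%, 23.0%, 4.04% and 12.7%. Low-UMI background barcodes, those ranked 45000 to 90000 by UMIs, held 7 to 90 UMIs each in NEJ709 and 14 to 127 in NEJ687, as droplets without a cell do. In NEJ723 they held 32 to 460 and in NEJ634 210 to 952, so there they may include cells and are no clean measure of free RNA. The 4 genes made up 0.0435%, 0.0430%, 0.0937% and 0.0214% of them. In NEJ709 that was above the 0.0621% of its myelocyte-like barcodes.

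Ms4a3, a membrane protein gene of granulocyte and monocyte progenitors, was a marker that the rule did not use. Since it belongs to both kinds of progenitor, its level cannot tell them apart. Ms4a3 stood at 858 CPM (95% Poisson interval 819 to 898) in NEJ634, 1278 (1227 to 1329) in NEJ687, 1026 (946 to 1112) in NEJ709 and 1412 (1357 to 1469) in NEJ723. With the low-UMI background subtracted at its upper limit, the levels were 2390, 2810, 1125 and 2177. That background may hold cells in NEJ634 and NEJ723, so the order of the libraries rests on this choice. The myelocyte-like barcodes of the same libraries had 180, 137, 138 and 124 CPM, and the barcodes with lymphocyte markers had 3.83, 0.860, 0 and 3.04, where 0 UMIs allow up to 13.5 CPM. The promyelocyte-like level was above all of these in every tumor. With every barcode thinned to 1000 UMIs, Ms4a3 was detected in 47.4% of promyelocyte-like barcodes in NEJ634, 59.4% in NEJ687, 36.8% in NEJ709 and 67.0% in NEJ723. In lymphocyte barcodes thinned alike, a cell type that should lack the gene, it was detected in 0.571%, 0.328%, 0% and 0.220%. The median total before thinning was 2424, 3314, 3565 and 2593 UMIs in the lymphocyte barcodes, and the unthinned share in promyelocyte-like barcodes of NEJ634 was 67.0%. Prss57, a further serine protease of the same granule, stood at 207, 233, 221 and 266 CPM against 42.5, 23.9, 22.6 and 30.4 in myelocyte-like barcodes.

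**Figure D2:**
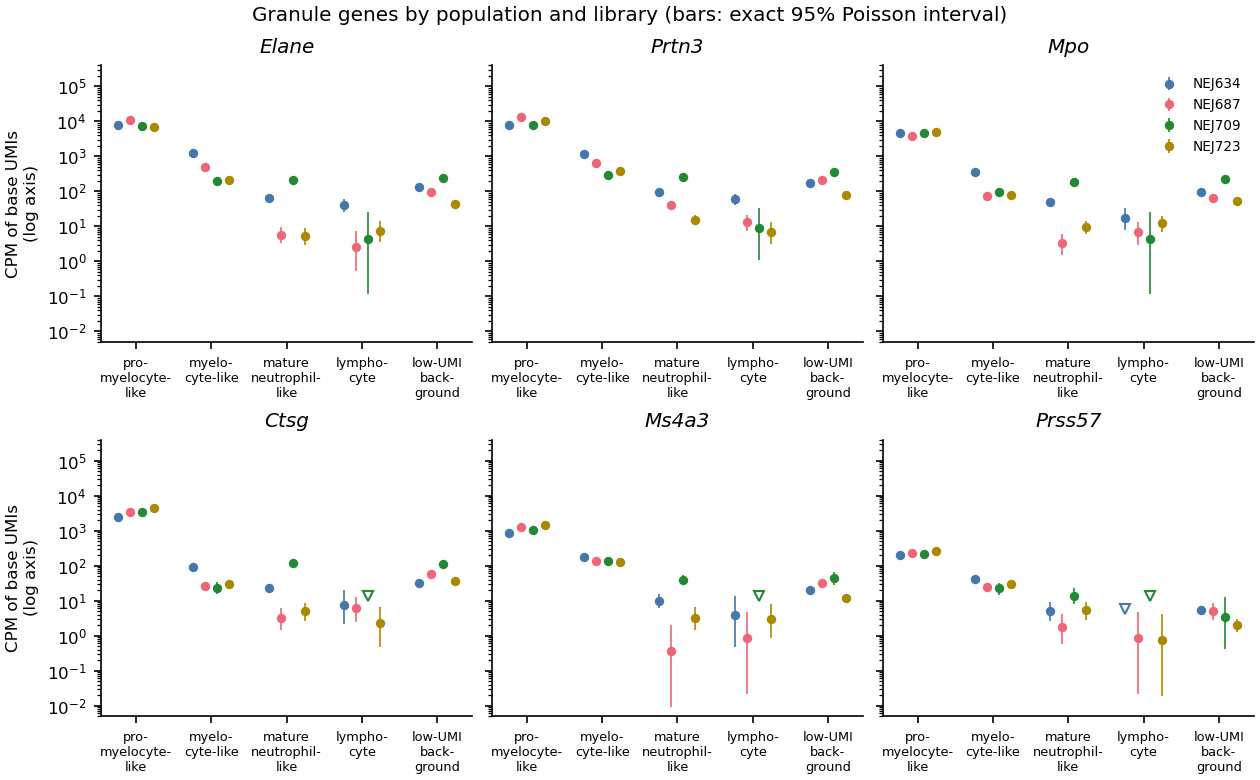
Points give the level of 6 granule genes in CPM (log axis) in 5 populations of each tumor library, with exact 95% Poisson intervals. Open triangles mark 0 UMIs and stand at the level of 3 UMIs. Ms4a3 and Prss57, which the rule did not use, stand higher in the promyelocyte-like barcodes than in the other 4 populations of each library.

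Barcodes stood close to the limits of the rule on both sides. Ms4a3 stood at 295, 336, 453 and 206 CPM in the 245 barcodes whose 4-gene share was between 0.8% and 1%, just outside. It stood at 369, 356, 498 and 381 in the 196 barcodes between 1% and 1.2%, just inside. In the 214 barcodes at 3% or more it stood at 1689, 2074, 1625 and 2301. On the side of the secondary granule limit, 13 barcodes had a Camp, Ngp and Ltf share of 4% to 5% and 11 of 5% to 6%. In all, 64 barcodes met the primary limit but were left out at 5% or more, these 11 included, and 52 of the 64 were in NEJ634.

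The remaining genes of the primary granule list did not move as 1 group. Of 14 genes, 11 reached 20 CPM in promyelocyte-like or myelocyte-like barcodes of each library and could be compared. A gene was counted as higher or lower when it differed by 2-fold or more the same way in each of the 4 libraries. By this count 855 of 4823 genes (17.7%) were higher in the promyelocyte-like barcodes and 252 (5.22%) lower. Among the 11 primary granule genes 5 were higher: Ms4a3, Prss57, Cst7, Nkg7 and Srgn, the last coding for serglycin, the proteoglycan that packs granule proteins. Srgn was no longer counted on the centred scale described in the next paragraph. Cst7, a cathepsin inhibitor, stood at 86.4, 125, 96.1 and 160 CPM against 12.6, 3.29, 5.02 and 4.39. Nkg7, a granule membrane protein also found in killer lymphocytes, stood at 556, 577, 376 and 406 against 102, 45.5, 30.9 and 32.7, and at 565, 1350, 422 and 421 in the lymphocyte barcodes. Lyz2, lysozyme, was the only gene of the list counted as lower, at 1287, 688, 398 and 650 against 5389, 11346, 6253 and 4344. Fcnb, ficolin B, was also below the myelocyte-like level in all 4 libraries, at 307, 237, 541 and 212 against 685, 602, 663 and 445, but by under 2-fold in NEJ709.

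Counts of this kind depend on the scale. S100a8 and S100a9, the calprotectin subunits, took 20.2%, 28.3%, 31.0% and 27.6% of the base in myelocyte-like barcodes and 2.70%, 1.40%, 3.74% and 2.63% in the promyelocyte-like ones. The median gene compared was higher in the promyelocyte-like barcodes by 0.44, 0.82, 0.68 and 0.61 on the log2 scale. With ratios centred on that median, 201 genes (4.17%) were higher and 485 (10.1%) lower, so that the higher genes were 77.2% of all calls on the first scale and 29.3% on the second. All 201 were among the 855, and all 252 were among the 485. Since both populations were chosen by granule genes, these counts describe the selected barcodes and carry no test.

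The secondary and tertiary granule genes and the genes of mature neutrophils were mostly lower than in myelocyte-like barcodes. Of 13 compared secondary and tertiary genes 11 were lower, 3 of them the genes of the rule, and none was higher, with a median log2 ratio of -4.81 against 0.63 over all genes compared. Lcn2, lipocalin 2, which binds bacterial siderophores, stood at 417, 389, 487 and 545 CPM in the promyelocyte-like barcodes against 9147, 21461, 13285 and 15818. Chil3, a chitinase-like lectin, stood at 287, 251, 283 and 344 against 3154, 6645, 5299 and 6945. The proteases Mmp8 and Mmp9, the membrane protein Cd177 and the glycoprotein genes Orm1 and Olfm4 were lower as well, each at or below 40.4 CPM in every library. Of 14 mature neutrophil genes 9 were lower, with a median of -3.14. Ly6g, the surface antigen by which mouse neutrophils are recognised, stood at 14.6, 3.66, 5.15 and 0 against 274, 577, 267 and 232, and 0 UMIs in NEJ723 allow up to 1.73 CPM. Further genes lower in every library by the naming rule were Ifitm6, Itgb2l, Slfn4, Cd300lf and AA467197. Ifitm6, an interferon-induced membrane protein, stood at 57.8, 32.4, 48.1 and 52.4 against 730, 2146, 1671 and 2370.

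S100a8 and S100a9 were low compared with later stages but were still among the 10 highest genes by level summed over these barcodes. S100a8 stood at 14136, 6845, 20130 and 13940 CPM against 100478, 123072, 164170 and 134055 in myelocyte-like barcodes. S100a9 stood at 12869, 7145, 17238 and 12378. The other leaders by median level were Prtn3, Elane, Tmsb4x (thymosin beta 4, an actin monomer binder), the ribosomal protein genes Rpl41, Rps29, Rps27a and Rps20, and Gm42418, a locus that overlaps ribosomal RNA sequence. Gm42418 stood at 37759 CPM in NEJ634 but at 3235, 10510 and 6330 in the other tumors.

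Genes that fold and export secreted proteins were higher as a list. All 18 genes of the endoplasmic reticulum list were compared and all 18 were higher, with a median log2 ratio of 2.08. After centring, 7 were still counted as higher (Calr, Pdia4, Pdia6, Sdf2l1, Manf, Ssr2 and Ssr4) and none lower. Summed, the list stood at 8608, 10288, 9206 and 8520 CPM, against 3133, 2057, 2265 and 1925 in myelocyte-like and 4585, 4471, 3720 and 2966 in lymphocyte barcodes. The log2 ratio of the sums was 1.46 (1.42 to 1.5) in NEJ634, 2.32 (2.28 to 2.36) in NEJ687, 2.02 (1.96 to 2.09) in NEJ709 and 2.15 (2.10 to 2.19) in NEJ723. Calr, the calcium-binding chaperone calreticulin, stood at 683, 715, 681 and 633 against 138, 53.5, 89.5 and 57.0. Hspa5, the main lumenal chaperone BiP, stood at 1044, 1247, 1014 and 745 against 471, 359, 390 and 322. Sdf2l1, which works with BiP, had the largest ratio by the naming rule, which leaves out the genes of the rule for barcodes, at 182, 260, 244 and 160 against 31.0, 16.5, 10.0 and 12.1. Manf and Pdia6, genes of protein folding, and Ssr2, a subunit of the translocon-associated complex, were named by the same rule. Xbp1, a transcription factor of secretory cells, stood at 141, 94.6, 136 and 108 against 74.5, 48.8, 89.5 and 63.8, which is under 2-fold in each library.

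Genes of ribosome assembly were similarly high. Of 16 genes in the nucleolar list 15 were compared, Rrp9 being too low, and all 15 were higher, with a median log2 ratio of 3.39. After centring 8 were still higher. With both populations limited to barcodes over 5000 UMIs, 1300 of 4813 genes (27%) were higher and 360 (7.48%) lower, the higher ones including the same 18 endoplasmic reticulum and 15 nucleolar genes. Without that limit of depth, the nucleolar list summed to 5594, 7398, 5804 and 6248 CPM in promyelocyte-like barcodes, against 2140, 631, 797 and 783 in myelocyte-like ones. Npm1, the nucleolar chaperone nucleophosmin, stood at 2140, 2950, 2214 and 2185 against 815, 210, 185 and 226. Nop10, a subunit of the particles that pseudouridylate ribosomal RNA, stood at 533, 752, 474 and 740 against 138, 44.7, 46.0 and 55.3. In the low-UMI background the list summed to 4800, 6101, 2620 and 4009, while Ms4a3 stood there at 20.7, 31.5, 43.9 and 11.5.

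**Figure D3:**
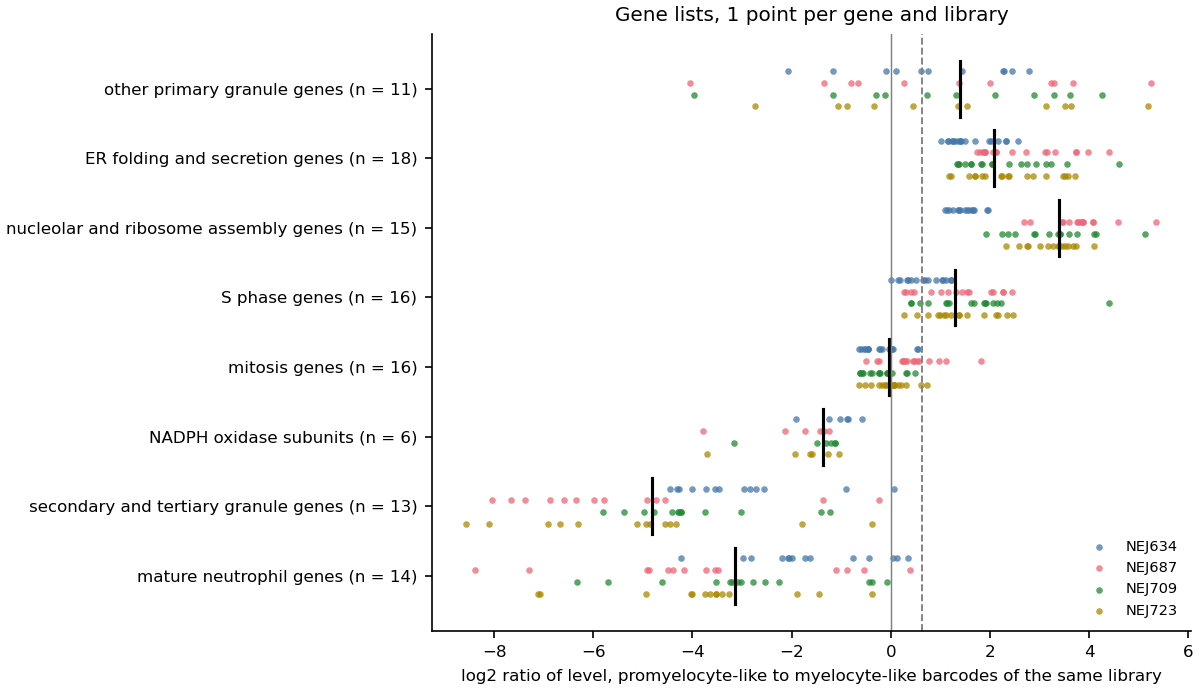
Each point is 1 gene in 1 tumor library, placed by the log2 ratio of its level in promyelocyte-like to that in myelocyte-like barcodes; black lines are list medians over genes and the dashed line is the median of all genes compared (0.63). Every endoplasmic reticulum and nucleolar gene lies above 0 in all 4 libraries, mitosis genes lie on both sides of it (median -0.04), and the secondary granule list has a median of -4.81.

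Cell cycle genes split by phase. All 16 S phase genes were higher by any size in each of the 4 libraries, as were 2888 of the 4823 genes compared (59.9%). By 2-fold or more in each, 5 were higher (Mcm2, Mcm3, Mcm6, Gins2 and Dut), with a median log2 ratio of 1.28. After centring the median was 0.55 and no gene was counted. Dut, which keeps uracil out of DNA, stood at 342, 503, 431 and 521 CPM against 149, 106, 97.8 and 102. The summed list stood at 2128, 2192, 2451 and 2113 against 1383, 914, 967 and 836. Of 16 mitosis genes none was counted as higher or lower, with a median of -0.04, or -0.58 after centring. Their sum stood at 1711, 2093, 2063 and 1865 in promyelocyte-like and 2108, 1732, 2458 and 2031 in myelocyte-like barcodes. The log2 ratio was -0.30 (-0.36 to -0.24) in NEJ634, 0.27 (0.22 to 0.33) in NEJ687, -0.25 (-0.35 to -0.16) in NEJ709 and -0.12 (-0.19 to -0.06) in NEJ723, so its sign differed between libraries. Mki67, the proliferation antigen, stood at 325, 201, 374 and 214 against 450, 283, 560 and 307. Cdk6, a kinase of early cell cycle entry, stood at 181, 222, 297 and 307 against 35.3, 12.6, 20.1 and 19.6. The low-UMI background held 1633, 2318, 2720 and 1187 CPM of the mitosis list.

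Of the transcription factors of granulocytes and monocytes, 11 of 16 were compared. Of these 2 were counted as higher and 1 as lower, a share of higher genes close to the 17.7% of all genes. Myb, a factor of progenitors, stood at 146, 141, 206 and 234 CPM against 25.6, 15.1, 42.6 and 27.7. Cebpa, which starts the granulocyte program, stood at 41.8, 27.7, 36.0 and 42.0 against 19.8, 2.19, 1.67 and 3.04. Cebpe, which drives secondary granule genes, was lower, at 119, 167, 146 and 146 against 261, 522, 339 and 467. After centring Myb was the only one still counted as higher, while Cebpe, Cebpd and Spi1 were lower, so the call of Spi1 (PU.1) rests on the scale, while its level was lower in each library on both. Its values were 155, 299, 189 and 192 against 271, 411, 261 and 336. Irf8, which favours monocytes and dendritic cells, stood at 49.8, 98.8, 84.1 and 84.6 against 30.2, 2.19, 5.02 and 5.74 and was not counted, since NEJ634 differed by under 2-fold. Among barcodes over 5000 UMIs Irf8 was counted as higher and Cebpa was not. Gfi1, Gfi1b, Klf4, Myc and Per3 were below the level needed for comparison.

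Early progenitor genes were detected at low levels. Kit, the stem cell factor receptor, stood at 67.6, 57.0, 103 and 131 CPM against 25.6, 8.78, 22.6 and 21.9, and Cd48 was the only other gene of the list of 14 that could be compared, also higher. Neither was counted after centring. Cd34, a progenitor surface protein, stood at 7.99, 36.6, 42.9 and 55.9 against 1.80, 1.37, 0.836 and 0.675. After thinning to 1000 UMIs, Kit was detected in 6.04%, 4.95%, 2.63% and 7.69% of promyelocyte-like barcodes and in 2.29%, 0.984%, 3.77% and 0.220% of lymphocyte barcodes. In NEJ709 these shares were 1 of 38 and 2 of 53 barcodes, too few to tell the populations apart. Flt3, Meis1 and Hoxa9, genes of earlier progenitors, stood at or below 19.6 CPM in every library.

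Among genes of later neutrophil function, a minority was counted either way before centring. Over all genes compared, 17.7% were higher and 5.22% lower. Cybb and Ncf4, which code for subunits of the superoxide-making NADPH oxidase, were lower, also after centring. Cybb stood at 279, 98.8, 177 and 97.3 CPM against 1053, 1357, 1581 and 1276. Of 12 compared cytokine and homing receptors, Itgam and Itgb2 (the Mac-1 integrin chains) and Cxcr2 were lower, and Ifngr1, an interferon gamma receptor chain, was higher, though not after centring. Itgam stood at 67.2, 15.2, 54.9 and 28.2 against 342, 379, 470 and 371. Csf3r, the receptor of the granulocyte growth factor G-CSF, stood at 41.8, 27.2, 49.8 and 24.8 against 56.5, 58.7, 67.7 and 67.8. Among 8 compared protease inhibitors Cst7 was higher and Stfa1 lower. Neither the receptors nor the inhibitors thus held a larger share of higher genes than all genes compared. Serpinb1a, which inhibits elastase and cathepsin G, stood at 356, 489, 505 and 533 against 380, 770, 549 and 672. Of 7 compared haem synthesis genes none was counted either way, and haem is the cofactor of myeloperoxidase. Alas1, the first enzyme of that pathway outside red cells, stood at 160, 178, 208 and 253 against 154, 164, 156 and 183.

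Further genes named for ratios well over 2-fold in every library were Plac8, Gstm1, Ramp1 and AI506816. Plac8, a small cysteine-rich protein of myeloid cells, stood at 1833, 3253, 2739 and 3193 CPM against 410, 343, 303 and 345. Gstm1, a glutathione transferase, stood at 317, 281, 314 and 344 against 60.8, 20.9, 23.4 and 13.5. Ramp1, a subunit of the calcitonin gene-related peptide receptor, stood at 230, 590, 482 and 564 against 52.2, 58.4, 43.5 and 68.8.

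Markers of other lineages were counted to see what else the rule had let in. Of the monocyte markers, F13a1 (a coagulation factor subunit) and Ms4a6c were higher among 6 compared genes, and F13a1 still after centring. Over all genes compared, 17.7% were higher, and 4.17% after centring. The monocyte list had a median log2 ratio of 2.91, against 0.63 over all genes. By any size, 5 of the 6 were higher in each library, against 59.9% of all genes. Over 5000 UMIs 4 of 6 were counted as higher (Irf8, Ccr2, F13a1 and Ms4a6c), against 27% of all genes. Those 6 held Ccr2 in place of Cd74. The list reached 5 UMIs in 18.3%, 87.1%, 63.2% and 76.9% of promyelocyte-like and in 26.3%, 50.2%, 66.0% and 39.8% of lymphocyte barcodes, whose depth differed as given above. Both 5 UMIs and 0.5% of the base were reached in 1.67%, 2.97%, 0% and 7.69% against 15.4%, 27.9%, 50.9% and 24.4%. Lymphocyte barcodes are thus not a background free of this list. F13a1 stood at 69.5, 272, 178 and 111 CPM against 20.2, 4.66, 3.34 and 10.1. Ly6c2, the monocyte surface antigen, stood at 660, 1068, 1294 and 865 against 379, 475, 454 and 498. The 10 macrophage markers summed to 1572 CPM in NEJ634 and to 175, 269 and 250 in the other tumors. In NEJ634 5 or more UMIs of them were found in 18.4% of promyelocyte-like barcodes, against 6.29% of lymphocyte barcodes, and among the NEJ634 barcodes over 5000 UMIs their sum was 431. The hepatoblast list in NEJ634 reached 5 UMIs in 44.0% of the barcodes, against 30.3% of lymphocyte barcodes. It reached both 5 UMIs and 0.5% of the base in 21.8% against 6.29%, and the low-UMI background of NEJ634 stood at 6564 CPM. T and NK markers summed to 161, 91.0, 10.3 and 9.79 CPM, against 2346 or more in lymphocyte barcodes of each library. In NEJ687 1 barcode held 107 of these UMIs, and the level without it was 35.4. In NEJ723 1 barcode held 11, and the level without it was 3.52. B, megakaryocyte and endothelial or stromal markers each reached 5 UMIs in at most 2.97% of the barcodes of any tumor. Plasmacytoid dendritic cell markers did so in 1.67%, 24.8%, 13.2% and 20.9%, against 10.3%, 11.8%, 24.5% and 16.7% of lymphocyte barcodes. Erythroid markers did so in 7.08%, 33.7%, 78.9% and 53.8%, against 13.1%, 7.87%, 11.3% and 3.30% of lymphocyte barcodes, which outside NEJ634 were the shallower ones. Their summed level was 673, 468, 815 and 332 CPM, against 649, 695, 794 and 413 in lymphocyte barcodes, so by level they were not higher in every tumor. Eosinophil precursor markers summed to 34.8 or less in each library, and Epx (eosinophil peroxidase) and Ear1 had no UMI in any of them. In the low-UMI background the eosinophil list stood at 49.3, 47.9, 45.6 and 18.2.

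Basophil and mast cell markers were highest by level in NEJ687 but found in more barcodes of NEJ723. They summed to 970 CPM in NEJ687, against 15, 25.7 and 89.3 in NEJ634, NEJ709 and NEJ723. In NEJ687 95.5% of these UMIs came from 2 of the 101 barcodes. The first held 1190 of them, with 844 of Prss34, 282 of Mcpt8 and 55 of Cpa3, and a 4-gene share of 1.18%, just above the limit. The second held 581 with a share of 1.56%. Without both, the level in NEJ687 was 44.8, below that of NEJ723. In NEJ723 10 of the 91 barcodes held 5 or more of these UMIs and 20 held 2 or more, with 18 as the highest, against 6 and 13 of the 101 in NEJ687. Prss34, a basophil protease gene, had the widest range between tumors of 1386 genes compared for it, from 0.470 CPM (1 UMI) in NEJ634 to 662 in NEJ687, where all its UMIs came from these 2 barcodes. The other genes of widest range were H19 and Hamp, both high in NEJ634 at 1415 and 301, Cstdc5, a stefin gene at 358 in NEJ723 and 0.523 (1 UMI) in NEJ687, and Xist, at 541 in NEJ634 and at 0 UMIs in NEJ687. H19, a fetal liver RNA, and Hamp, the hepcidin gene, are made by hepatocyte-lineage cells, and they moved with the hepatoblast list of NEJ634 given above.

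Among the 229 barcodes over 5000 UMIs the spread within a library could be followed. The 4-gene level at the highest decile was 4.39, 5.17, 2.95 and 3.82 times that at the lowest decile in NEJ634, NEJ687, NEJ709 and NEJ723. The rule cut this level off below 1% of the base, so its spread cannot be set beside those that follow. For the endoplasmic reticulum list the ratio of highest to lowest decile was 2.56, 1.80, 2.30 and 2.55, and for the mitosis list 4.78, 9, 4.28 and 11.1. For S100a8 and S100a9 it was 174, 1261, 442 and 2269. The sum of both was under 0.1% of the base in 7 of 45 barcodes in NEJ634, 45 of 86 in NEJ687, 6 of 21 in NEJ709 and 35 of 77 in NEJ723, and it was 1% or more in 25, 30, 15 and 25. Over these barcodes Ms4a3 went with the 4-gene share, with a Spearman correlation of 0.80 (n = 45), 0.89 (n = 86), 0.80 (n = 21) and 0.87 (n = 77). The Camp, Ngp and Ltf share went with S100a8 and S100a9 (0.83, 0.75, 0.96 and 0.69). S phase and mitosis sums correlated at -0.29, -0.23, -0.02 and -0.28. The 4-gene share and the Camp, Ngp and Ltf share were both cut by the rule, at 1% and at 5% of the base. Barcodes of a correlation share their library and differ in depth, and the values are descriptions.

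**Figure D4:**
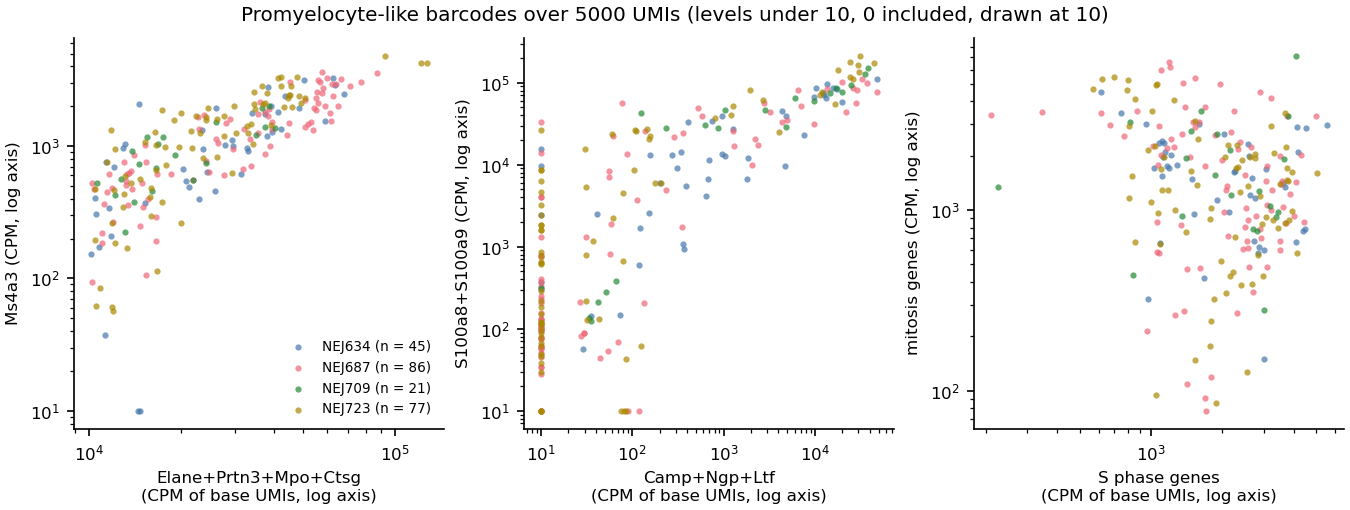
Each point is 1 promyelocyte-like barcode over 5000 UMIs, with levels in CPM on log axes and levels under 10, 0 included, drawn at 10. Ms4a3 rises along the 4-gene level in each library, and S100a8 with S100a9 ranges from 0 to 214535 CPM.

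The barcodes were then divided within each library by their share of Camp, Ngp and Ltf, and the lowest and highest tertiles were compared. In the order used above, the lower limit was 0.101%, 0%, 0.527% and 0% of the base. The upper limit was 0.597%, 0.0137%, 1.37% and 0.0111%. The low-UMI background held 0.489%, 0.211%, 1.30% and 0.113% of these genes, above the lower limit in each library. In NEJ687 and NEJ723 it was above the upper limit as well, so background UMIs could also place a barcode in the highest tertile. The part of background RNA in this division was not tested. The lowest tertile held 320 barcodes in NEJ634, 48 in NEJ687, 13 in NEJ709 and 43 in NEJ723, and the highest 320, 34, 13 and 30. Barcodes without any UMI of the 3 genes numbered 184, 48, 1 and 43. Of 4674 genes compared, 11 (0.235%) were higher in the lowest tertile by 2-fold or more in each library and 29 (0.62%) higher in the highest, among them Camp, Ngp and Ltf, which defined the tertiles. Both counts changed with the setting, to 51 and 52 without NEJ634 and to 30 and 53 over 5000 UMIs. With a library left out fewer must pass, so those counts can rise by construction. In NEJ709 the tertiles differed in depth, with a median of 33835 UMIs in the lowest and 4493 in the highest, and 11 of its 13 highest barcodes held over 5% haemoglobin. The part of depth in the contrast was not tested. The macrophage list was also lower in the lowest tertile in NEJ634, with a log2 ratio of -1.32 (-1.45 to -1.19), and in NEJ723, at -5.52 (-6.44 to -4.73), where 1 barcode held 353 of its UMIs.

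S100a8, S100a9, Lcn2, Chil3, Wfdc21, Pglyrp1, G0s2, Fcnb, Clec4a2 and Syne1 led the genes that were higher where Camp, Ngp and Ltf were higher. S100a8 stood at 5980, 649, 10553 and 1439 CPM in the lowest and 27611, 21956, 58138 and 40537 in the highest tertile. Fcnb, a ficolin gene of the primary granule list, stood at 145, 41.4, 336 and 20.9 against 588, 724, 1433 and 604. Pglyrp1, a peptidoglycan-binding protein of granules, stood at 244, 126, 293 and 203 against 692, 1064, 1278 and 1213. Itgam and Itgb2 were also higher in the highest tertile.

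Lgals1 led the genes that were higher in the lowest tertile. It codes for galectin 1, a sugar-binding protein, and stood at 595, 1312, 720 and 1090 CPM in the lowest and 263, 435, 156 and 449 in the highest tertile. It was at 119, 13.4, 12.5 and 28.7 in myelocyte-like barcodes. Gnl3, the nucleolar GTPase nucleostemin, stood at 178, 169, 176 and 160 against 81.1, 73.2, 62.3 and 49.1, and 14 of 15 nucleolar genes were higher by any size in the lowest tertile of all 4 libraries, against 26.5% of all genes compared. By 2-fold or more in each, Gnl3 and Nop16 were the 2 of the list counted. Cdk4, H2afy (a macroH2A histone), C1qbp, F13a1, Slc25a4, Eif1a, Pdcd4 and Mybbp1a were named by the same rule. Only Lgals1 and Gnl3 of these 10 differed by 2-fold or more in all 4 libraries. F13a1 stood at 116, 342, 232 and 123 against 24.8, 71.3, 31.2 and 69.8, which is under 2-fold in NEJ723. The mitosis list leaned the other way: 7 of 15 genes were lower by any size in the lowest tertile of all 4 libraries, against 9.91% of all genes compared, none by 2-fold in each, and its summed log2 ratio was -0.29 (-0.40 to -0.17), -0.27 (-0.38 to -0.16), -0.66 (-0.88 to -0.44) and -0.59 (-0.70 to -0.48). The S phase sums had ratios of 0.05 (-0.05 to 0.16), -0.06 (-0.16 to 0.05), -0.33 (-0.52 to -0.13) and 0.01 (-0.10 to 0.13), so only NEJ709, the library whose tertiles differed in depth, had an interval that left out 0.

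**Figure D5:**
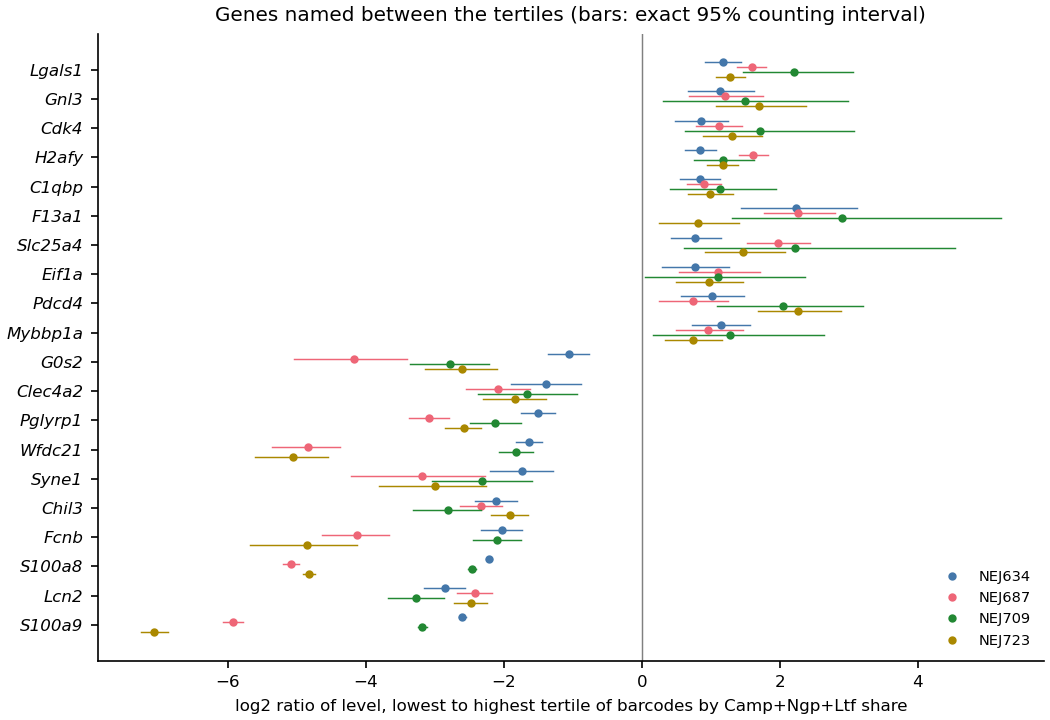
Points are log2 ratios of the level in the lowest to that in the highest tertile of promyelocyte-like barcodes by Camp, Ngp and Ltf share, for the 20 named genes in each tumor library, with exact 95% counting intervals. Lgals1 and Gnl3 lie at 1.14 or more in all 4 libraries, and S100a9, S100a8, Lcn2 and Fcnb at -2.02 or less.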

How the data were processed

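Droplet single-cell RNA sequencing was analysed from the deposited matrices of UMI counts per gene and barcode (32285 genes, 7 libraries), which the authors made from the reads. The submitters' notes name Cell Ranger 6.0 while a file header names an earlier major version, and the genome build is not given in the sources used here. Counts were taken as deposited, before any cell filter of the authors. The labels give no groups, so samples were left ungrouped, each library was 1 sample, and values are compared within a library and set side by side between libraries without tests. Tested barcodes had a median of 1640 to 5014 UMIs in the tumor libraries. The barcodes and all gene lists were chosen with earlier results of these data known. Levels are summed UMIs per 1000000 base UMIs (CPM) with exact Poisson intervals, shares have exact Clopper-Pearson intervals (95%), a ratio has an exact conditional interval, and 0 UMIs are given an upper limit of 3 UMIs. Comparison populations were myelocyte-like barcodes, mature neutrophil-like barcodes (Retnlg, Cxcr2, Ly6g, Il1b and Stfa2l1 at 10 UMIs and 0.5% or more) and lymphocyte barcodes (T, NK and B markers at 10 UMIs and 0.5% or more). Named genes were the markers, the 10 highest by median level, the 15 higher and 15 lower than in myelocyte-like barcodes with the largest ratio in the library nearest to 0 among genes at 100 CPM or more other than the 7 granule genes of the rule, 10 in each direction between tertiles, the 5 of widest range between tumors, and 2 to 6 of each list. No doublet caller was run, and leaving out the 10% of barcodes with most UMIs was an alternative. Other alternatives changed the limits of the rule, the total, the level filter and the libraries, and some were added after the data were seen. Those were the centring, the restriction to barcodes over 5000 UMIs, the level filters and leaving out each library. Some genes of the lists are not reported here. The comparison code was tested on simulated data. Promoter sequences came from RefSeq (GRCm38.p6), and no file coordinates were used. Python 3.11.15 with numpy 2.4.6, scipy 1.17.1, pandas 2.3.3 and matplotlib 3.10.9 was used.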

Additional observations from a re-analysis of the deposited data

Results flagged for a closer look

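The 3 healthy liver libraries entered no comparison, and barcodes in them that passed the same rule were above the limit that a count of 0 allows in NEJ654, with 7 of 5674 (0.123%), and in NEJ677, with 5 of 6846 (0.0730%). All 5 barcode sequences of NEJ677 were among the 7 of NEJ654. All 7 of NEJ654 held over 500 UMIs in NEJ677 and 5 of them did so in NEJ687. They had a median of 1303 UMIs in NEJ654 and 1293 in NEJ677, a median 4-gene share of 5.40% and 4.64%, and no UMI of Camp, Ngp or Ltf. The 2 barcodes of NEJ638 differed from these, with a median of 9686.5 UMIs and shares of 1.92% and 2.29%. Whether the barcodes shared between libraries came from cells of those livers was not tested.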

How the results depend on the processing

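Of 98 recomputed values 56 stayed and 42 moved. A value stayed when it lay within its spread, within 1.5 times the main count or, for a list median, within 0.5 on the log2 scale. The median log2 ratio of the mitosis list (-0.04) changed sign within that limit, to 0.02 over 5000 UMIs, 0.06 without NEJ634 and 0.05 without NEJ709. Centring turned the balance of higher and lower genes. The number of promyelocyte-like barcodes (1190) was 628 with over 2000 UMIs required, 1831 with a 4-gene share of 0.5%, 214 with 3%, 229 over 5000 UMIs and 230 without NEJ634. The median Ms4a3 level over libraries (1152 CPM) was 1153 over 2000 UMIs, 880.0 at 0.5%, 1881 at 3%, 1226 without the 10% of barcodes with most UMIs, 1218 over 5000 UMIs, 1100.3 with all UMIs as the total, 1102 as a mean share per barcode and 2284 with the low-UMI background subtracted. The summed mitosis level (1964) was 1923 at 0.5%, 1871 at 3%, 1888 with Camp, Ngp and Ltf under 2%, 1973 with them under 10%, 1846 without the 10% with most UMIs, 1938 over 5000 UMIs, 1856 with all UMIs, 1855 as a mean share and 1925 after subtraction. Genes higher than in myelocyte-like barcodes (855) numbered 201 after centring, 1300 over 5000 UMIs, 497 at a level filter of 50 CPM, 1636 with no filter and 1666 without NEJ634. Genes lower (252) numbered 485 after centring, 164 at the filter of 50 and 458 without NEJ634. Genes higher in the lowest tertile (11) numbered 30 over 5000 UMIs, 51 without NEJ634, 19 without NEJ687, 22 without NEJ709 and 21 without NEJ723. Genes higher in the highest tertile (29) numbered 53 over 5000 UMIs, 52 without NEJ634 and 49 without NEJ687. With fewer libraries, fewer must pass, so those counts can rise by construction, and the cause of the other changes was not tested. Each ratio was taken within a library and so pairs both populations by library, and no test was run on the 4 ratios because the populations were chosen by their granule genes. Depth was lowest in NEJ634. The lymphocyte markers found in the barcodes allow RNA of the low-UMI background to make up as much as 64.7%, 55.1%, 9.17% and 35.3% of base UMIs in NEJ634, NEJ687, NEJ709 and NEJ723. Without the barcode richest in these markers in each library, an alternative chosen after seeing the data, the limits were 63.1%, 29.8%, 8.61% and 30.1%. That background may hold cells in NEJ634 and NEJ723, so the subtraction can be too large there.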

Other observations

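Below the depth limit of the rule, barcodes of 501 to 1000 UMIs also met its other limits: 118 of 26399 in NEJ634, 8 of 1599 in NEJ687, 0 of 4707 in NEJ709 and 1 of 11489 in NEJ723. Ms4a3 stood at 633 CPM (479 to 820) in those of NEJ634.

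Among promyelocyte-like barcodes over 5000 UMIs, Kit and Cd34 together had no UMI in 26 of 45 in NEJ634, 32 of 86 in NEJ687, 7 of 21 in NEJ709 and 9 of 77 in NEJ723. The gene with most UMIs of the 4 granule genes was Elane in 495 of the 960 barcodes of NEJ634, while it was Prtn3 in 67 of 101 in NEJ687, 19 of 38 in NEJ709 and 64 of 91 in NEJ723. These genes chose the barcodes, and depth differed: over 5000 UMIs the median share of the 4-gene UMIs in NEJ634 was 35.2% for Prtn3 and 31.9% for Elane.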
